A study of Mus musculus with 6 samples.

Results

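The genes described here are 10 members of the prostaglandin and bradykinin pathways, of the 54532 genes listed in the count tables: the phospholipase Pla2g4a, the cyclooxygenases Ptgs1 and Ptgs2, the synthases Ptges and Ptgis, the degrading enzyme Hpgd, the prostaglandin E2 receptors Ptger2 and Ptger4, and the bradykinin receptors Bdkrb1 and Bdkrb2. They were chosen by pathway with their change between the groups already known, so their changes are given as a description and without p values. Poly(A)+ RNA was sequenced from mouse Flp-In 3T3 cells, an established fibroblast line, in 3 SAFB KD and 3 control libraries. SAFB KD cells were transfected with siRNAs against Safb, Safb2 and Sltm together, and control cells with control siRNA. All cells were transfected again a day later before harvest, and the labels give no difference in strain, line or time between the groups. Safb, Safb2 and Sltm encode nuclear RNA-binding proteins, and the comparison asks how their joint loss changed polyadenylated RNA. The limits of the model are that it is a single line, that the depletion was partial at the RNA level, and that the siRNAs acted together, so that the part of each target cannot be told apart.

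Prostaglandins are made from arachidonic acid, which the cytosolic phospholipase A2 encoded by Pla2g4a cuts from membrane phospholipids. The cyclooxygenases turn it into prostaglandin H2, and terminal synthases turn that into the individual prostanoids, which leave the cell and act on G protein-coupled receptors nearby. Ptgs1 is the form that most tissues make all the time, and Ptgs2 is the form that cytokines and growth factors induce, in fibroblasts as in macrophages. Bradykinin, a short peptide cut from kininogen, acts on Bdkrb2, the receptor for the intact peptide, and on Bdkrb1, the receptor for the peptide without its last arginine, and its receptors are well known to stimulate arachidonate release.

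Total counts were 35485865 to 53441129 in the SAFB KD libraries and 33323307 to 42595732 in the control libraries. All 3 targets were lower in SAFB KD, Safb by 1.01, Safb2 by 0.64 and Sltm by 0.70 on the log2 scale. Levels are given as CPM, that is counts brought to a common library size with TMM scaling. On the second principal component (16.3% of the variance) control 3 stood apart at 44.2, with the other 5 libraries between -26.5 and 3.51, so values without it are given wherever a result turned on it. Over all tested genes, 21.6% were called higher and 20.2% lower, the shares to set beside the marker counts that follow. Of 12 fibroblast markers, 1 was higher and 9 were lower, with a summed level of 18624 to 19151 CPM in SAFB KD and 20007 to 21980 CPM in control. Smooth muscle markers moved the other way, 4 higher and 1 lower of 10, at 406 to 411 CPM in SAFB KD and 223 to 230 CPM in control. Macrophage and leukocyte markers were higher for 2 of the 6 tested, Cd68 and Cd14, at 42.4 to 43.4 CPM in SAFB KD and 26.5 to 27.6 CPM in control, while C1qa was at 0 in every library. Endothelial markers were higher for 2 of the 6 tested (12.3 to 13 CPM in SAFB KD, 9.82 to 10.3 CPM in control), with Kdr and Cldn5 at 0. None of the 3 epithelial markers tested was called, and Epcam, Krt5, Krt18, Cldn3 and Cldn4 were at 0. Interferon-response genes, 4 higher and 3 lower of the 14 tested, summed to 103 to 114 CPM in SAFB KD and 111 to 115 CPM in control. The part of these shifts in the changes described here was not tested, and since bulk RNA was sequenced, fewer cells of a type and less RNA per cell cannot be told apart.

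The promoters of Ptgs2, Ptgs1, Pla2g4a and Bdkrb2 are shown to set the sequence at the start of the inducible cyclooxygenase beside that of the constitutive form and of other genes that rose with it. RefSeq promoter sequence of mouse GRCm38.p6 (250 bases before and 50 after the annotated start) was matched for 8 of the 10 genes, and was not matched for Ptgis and Bdkrb1. The sequences run 5′ to 3′ on the strand of the gene, and capitals mark the letters of any motif searched.
Ptgs2 (chr1:150099781-150100080, plus strand): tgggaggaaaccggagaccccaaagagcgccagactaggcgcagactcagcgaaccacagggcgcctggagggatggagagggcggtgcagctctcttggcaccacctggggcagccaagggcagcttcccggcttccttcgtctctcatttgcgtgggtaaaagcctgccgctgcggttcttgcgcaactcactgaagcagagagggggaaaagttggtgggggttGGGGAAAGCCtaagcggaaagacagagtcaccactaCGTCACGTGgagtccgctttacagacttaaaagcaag
Ptgs1 (chr2:36230176-36230475, plus strand): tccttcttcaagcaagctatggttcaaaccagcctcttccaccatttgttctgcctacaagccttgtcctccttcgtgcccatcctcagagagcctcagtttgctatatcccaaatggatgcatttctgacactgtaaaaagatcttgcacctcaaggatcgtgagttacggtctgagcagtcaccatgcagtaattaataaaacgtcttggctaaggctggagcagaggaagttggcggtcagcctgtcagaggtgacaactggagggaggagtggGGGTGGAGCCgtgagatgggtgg
Pla2g4a (chr1:149961241-149961540, minus strand): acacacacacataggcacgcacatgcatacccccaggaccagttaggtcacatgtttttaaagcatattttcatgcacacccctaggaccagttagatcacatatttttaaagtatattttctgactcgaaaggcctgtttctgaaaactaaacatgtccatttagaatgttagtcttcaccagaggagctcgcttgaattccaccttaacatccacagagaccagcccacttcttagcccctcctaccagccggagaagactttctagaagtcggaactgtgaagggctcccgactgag
Bdkrb2 (chr12:105562922-105563221, plus strand): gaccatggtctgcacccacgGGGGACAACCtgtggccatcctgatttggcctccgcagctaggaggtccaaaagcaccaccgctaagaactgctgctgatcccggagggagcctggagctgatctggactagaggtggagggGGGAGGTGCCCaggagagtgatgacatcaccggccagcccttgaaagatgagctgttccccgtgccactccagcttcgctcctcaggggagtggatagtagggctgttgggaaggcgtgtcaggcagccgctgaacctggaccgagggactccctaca

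Both strands of these windows were searched for TATAAA, the cAMP response element TGACGTCA and its shorter form TGACG, the E box CACGTG, the NF-kB motif of the kappa light chain enhancer and its loose form (GGG and CC, 5 bases apart), and the AP-1 motif TGANTCA. Of the members' promoters, the one of Ptgs2 was alone in holding TGACG and CACGTG, which overlap in the run CGTCACGTG from base 14 to base 22 after the annotated start. TGACG occurred in 20.8% and CACGTG in 7.15% of all 32851 promoters in the table. The loose NF-kB form, found in 50.8% of all promoters, was present in those of Ptgs1, Ptgs2, Ptges, Ptger4 and Bdkrb2 and in neither of the Pla2g4a promoters. TATAAA, found in 13.6% of all promoters, was present in that of Hpgd, from base 5 to base 10 after the RefSeq start. The GENCODE start of Hpgd, 56294585 on chromosome 8, lies downstream of this match. TATAAA was also present in the second Pla2g4a promoter, which is not printed, 200 bases before the start and on the opposite strand. No member held TGACGTCA, the full NF-kB motif or TGANTCA in this window, motifs found in 1.79%, 0.155% and 7.81% of all promoters. The G+C content was 59.3% for Ptgs2, 61.7% for Bdkrb2, 50.7% for Ptgs1 and 45.3% for the Pla2g4a promoter printed above, against a median of 52.7% over all promoters. A match of letters is a description and says nothing of whether a factor was bound.

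The genes of arachidonate release and cyclooxygenation were higher in SAFB KD, and so were both bradykinin receptors, while Ptger4 was lower and the terminal synthases moved little. Of the 10 genes, 8 had enough reads to be tested, namely at least 10 over the 6 libraries. Among these, 5 were called higher and 1 lower at an adjusted p under 0.05, in a data set in which 41.8% of all 19452 tested genes were called, 21.6% higher and 20.2% lower. In 6 of the 8 the libraries of the groups did not overlap, as in 49.0% of all tested genes, and in 5 of these SAFB KD lay above control, as in 25.3% of all tested genes. Bdkrb2 was called beyond 2-fold, as were 0.72% of tested genes in that direction. Since the genes were chosen on this comparison, nothing is read from these counts. Their median log2 fold change was 0.52, against 0.01 over all tested genes. Their summed level was 3442, 3370 and 3332 CPM in SAFB KD 1 to 3 and 2037, 1991 and 1999 CPM in control 1 to 3, most of it from Ptgs2.

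**Figure D1:**
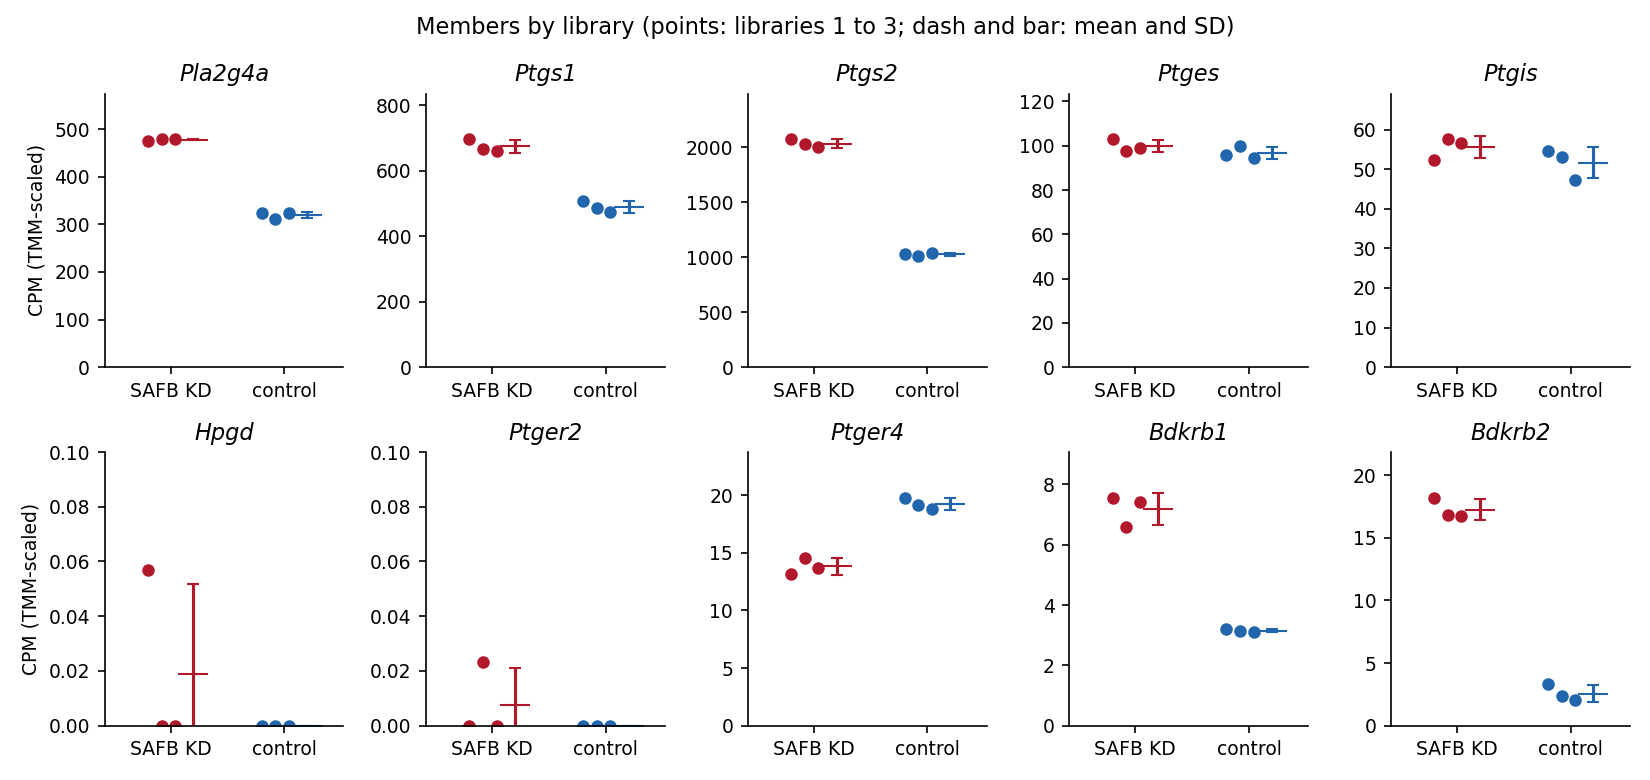
Level of each of the 10 genes in every library, in TMM-scaled CPM on linear axes from 0, with SAFB KD in red on the left and control in blue on the right. Points are libraries 1 to 3, the dash is the mean and the bar the SD (n = 3). The groups are apart for Pla2g4a, Ptgs1, Ptgs2, Ptger4, Bdkrb1 and Bdkrb2, overlap for Ptges and Ptgis, and Hpgd and Ptger2 rest on 2 reads and 1 read.

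Pla2g4a (ENSMUSG00000056220, chromosome 1, 149829618 to 149961290, minus strand, GRCm38) releases arachidonic acid from phospholipids and stands at the head of the pathway. It was at 476, 479 and 479 CPM in SAFB KD 1 to 3 and at 323, 312 and 324 CPM in control 1 to 3. Every SAFB KD library lay above every control library, by far more than the spread within either group. The means were 478 ± 1.54 CPM in SAFB KD and 320 ± 6.50 CPM in control (SD, n = 3 each), a 1.49-fold rise (log2 fold change 0.58, SE 0.029).

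The other phospholipase A2 genes were in part higher and in part lower. Of 19 listed, 9 were tested, of which 3 were higher, 2 lower and 4 not called (median log2 fold change 0.40). The share called was 55.6%, against 41.8% of all tested genes. Pla2g12a, a secreted form, was higher at 38.7 ± 1.37 CPM in SAFB KD and 22.5 ± 1.15 CPM in control (log2 fold change 0.78, edgeR adjusted p = 6.36e-20). Pla2g16, an acyltransferase and phospholipase of adipose tissue, was higher by 0.50 and the lysosomal Pla2g15 by 0.40 on the log2 scale (adjusted p = 3.01e-10 and 7.44e-09). Pla2g7, which inactivates platelet-activating factor, was lower at 14.6 ± 1.74 CPM in SAFB KD and 24.5 ± 0.519 CPM in control (-0.73, adjusted p = 9.53e-15). The calcium-independent Pla2g6 was at 13.2 ± 0.0678 CPM in SAFB KD and 15 ± 0.824 CPM in control (-0.18, adjusted p = 0.0278), a call that was lost when any of 4 libraries was left out (SAFB KD 2 or 3, control 1 or 2; adjusted p 0.0611 to 0.0895). Per length of exon, Pla2g4a was the most abundant of them by a wide margin, at 50.0 RPKM in control (reads per kilobase of exon, scaled as CPM) against 8.44 RPKM for Pla2g7.

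Genes that supply and recycle arachidonate were mostly lower. Of the 17 tested, 4 were higher, 9 lower and 4 not called (76.5% called, 41.8% over all tested genes, median -0.14). Fads1 and Elovl5, which desaturate and elongate fatty acids on the way to arachidonate, were each lower by 0.39 on the log2 scale (edgeR adjusted p = 1.26e-17 and 9.97e-15). Fads1 was at 342 ± 1.59 CPM in SAFB KD and 450 ± 21.0 CPM in control. Of the phospholipases C that receptors coupled to Gq activate, Plcb1 and Plcb4 were lower (-0.47 and -0.49, adjusted p = 5.34e-12 and 2.06e-08) and Plcb3 was higher (0.26, adjusted p = 1.87e-09). Acsl4, which couples arachidonate to coenzyme A, was at 420 ± 5.63 CPM in SAFB KD and 412 ± 11.8 CPM in control and was not called (0.03, adjusted p = 0.470).

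Ptgs2 (ENSMUSG00000032487, chromosome 1, 150100031 to 150108227, plus strand), the inducible cyclooxygenase, was the most abundant of the 10 genes and close to 2-fold higher in SAFB KD. It stood at 2075, 2031 and 1999 CPM in SAFB KD and at 1028, 1015 and 1036 CPM in control. The groups were far apart, with a coefficient of variation of 1.88% in SAFB KD and 1.05% in control. The means of 2035 ± 38.2 CPM in SAFB KD and 1026 ± 10.7 CPM in control (SD, n = 3 each) gave a log2 fold change of 0.99 (SE 0.028), which was larger in size than that of 87.2% of tested genes. In control cells its level per length, 224 RPKM, was above that of 99.2% of tested genes, so that the form known for its induction was already abundant in these cultures.

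Ptgs1 (ENSMUSG00000047250, chromosome 2, 36230426 to 36252272, plus strand), the constitutive cyclooxygenase, was higher too, but by less. Its level was 697, 667 and 661 CPM in SAFB KD and 509, 486 and 473 CPM in control. The lowest SAFB KD library was still well above the highest control library. The means were 675 ± 19.2 CPM in SAFB KD and 489 ± 18.1 CPM in control (log2 fold change 0.46, SE 0.030, a 1.38-fold rise).

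The balance of the cyclooxygenases can be read within each library, where it does not depend on scaling. The log2 ratio of Ptgs2 to Ptgs1 reads was 1.57, 1.61 and 1.6 in SAFB KD and 1.01, 1.06 and 1.13 in control, a difference of 0.52 (0.49 to 0.55 with any library left out). Per length of exon, Ptgs2 made up 71.6%, 72.1% and 71.9% of cyclooxygenase reads in SAFB KD and 63.1%, 63.9% and 65.0% in control. The inducible form was thus the larger share in every library, and more so in SAFB KD.

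Ptgs2 mRNA is known for its short life, set in part by AUUUA pentamers after its stop codon that AU-rich element binding proteins recognise. Counted in the longest complete coding transcript of GENCODE vM21, the 2445 bases after the Ptgs2 stop codon hold 14 ATTTA, more than in 97.1% of 20860 genes, for which the median was 1. The densest 30 bases, from base 16 to base 45 after the stop codon, are shown with the letters of ATTTA in capitals, the last of which runs past the end of the print.
Ptgs2: ATTTATTTATTTAtgtgaagaATTTAATTT
This stretch also holds 1 of the 5 GAAGAA of the whole transcript, a purine-rich motif of the kind that SAFB proteins bind. Ptgs2 has 1.12 GAAGAA per kb of transcript, Pla2g4a 2.10, Bdkrb2 1.05 and Ptgs1 0.698, while Bdkrb1 and Ptger4 have none, against a median of 0.702 per kb over 21584 genes. Pla2g4a was above 91.5% of genes in this. In ATTTA per kb Pla2g4a was above 98.4% of genes (4 in 443 bases), but in their count above 72.4%. Ptgs2 was above 94.5% per kb, and Ptger4, which was lower in SAFB KD and has 5 ATTTA, above 87.7%. Bdkrb2 has 2, at 0.782 per kb against a median of 1.22. Ptgs1 and Bdkrb1 have no ATTTA after the stop codon, and neither do Ptges and Ptgis, which were not called. In GAAGAA, Ptges has 0.548 and Ptgis 0.475 per kb of transcript.

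AU-rich element binding proteins were lower or not called. Of 15 tested, 0 were higher, 5 lower and 10 not called (median -0.05). The share called, 33.3%, was below the 41.8% of all tested genes. The lower ones were Zfp36l1 and Zfp36l2, which speed the decay of bound mRNAs, at 213 ± 7.89 and 295 ± 4.04 CPM in SAFB KD and 289 ± 6.41 and 387 ± 1.40 CPM in control (log2 fold changes -0.44 and -0.39, edgeR adjusted p = 2.83e-19 and 2.74e-18), and Celf2, Tia1 and Rbm3 (-0.31, -0.29 and -0.13, adjusted p = 1.57e-10, 1.28e-09 and 2.36e-04). Without control 3, 8 of the 15 were called in place of 5.

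Genes upstream of Ptgs2 induction moved in both directions. Of 19 tested, 6 were higher, 7 lower and 6 not called (68.4% called, 41.8% over all tested genes, median -0.05). Il6 was higher at 14.7 ± 0.928 CPM in SAFB KD and 8.66 ± 0.816 CPM in control (0.76, edgeR adjusted p = 2.14e-12), as were the growth factor receptor Egfr (0.52, adjusted p = 2.07e-14) and the interleukin 33 receptor Il1rl1 (0.34, adjusted p = 4.22e-16). Il1r1, the receptor through which interleukin 1 induces Ptgs2, was lower at 94.3 ± 1.84 CPM in SAFB KD and 135 ± 4.1 CPM in control (-0.51, adjusted p = 1.54e-20). Anxa1, a glucocorticoid-induced inhibitor of phospholipase A2, was lower at 799 ± 23.5 CPM in SAFB KD and 956 ± 34.0 CPM in control (-0.26, adjusted p = 1.93e-11). Il1b had no read in any library.

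Ptgs2 and Pla2g4a lie side by side on chromosome 1, on opposite strands, with 138740 bases between them. The long non-coding RNA Ptgs2os lies between them, its start facing that of Ptgs2 at 67 bases, and the long non-coding RNA Ptgs2os2 lies on the far side of Ptgs2. Ptgs2os2 (chromosome 1, 150159043 to 150164948, minus strand, 50815 bases past the end of Ptgs2) was at 73.1, 71.4 and 71.0 CPM in SAFB KD and 37.1, 37.6 and 38.7 CPM in control, a log2 fold change of 0.93 (SE 0.041, edgeR adjusted p = 2.94e-28). Ptgs2os (150074873 to 150099963, minus strand) was lower, at 4.41, 4.01 and 2.94 CPM in SAFB KD and 5.30, 5.34 and 5.95 CPM in control (-0.56, SE 0.13, adjusted p = 1.44e-04). These were the only tested genes within 100 kb of Ptgs2, and none was tested within 100 kb of Pla2g4a.

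**Figure D2:**
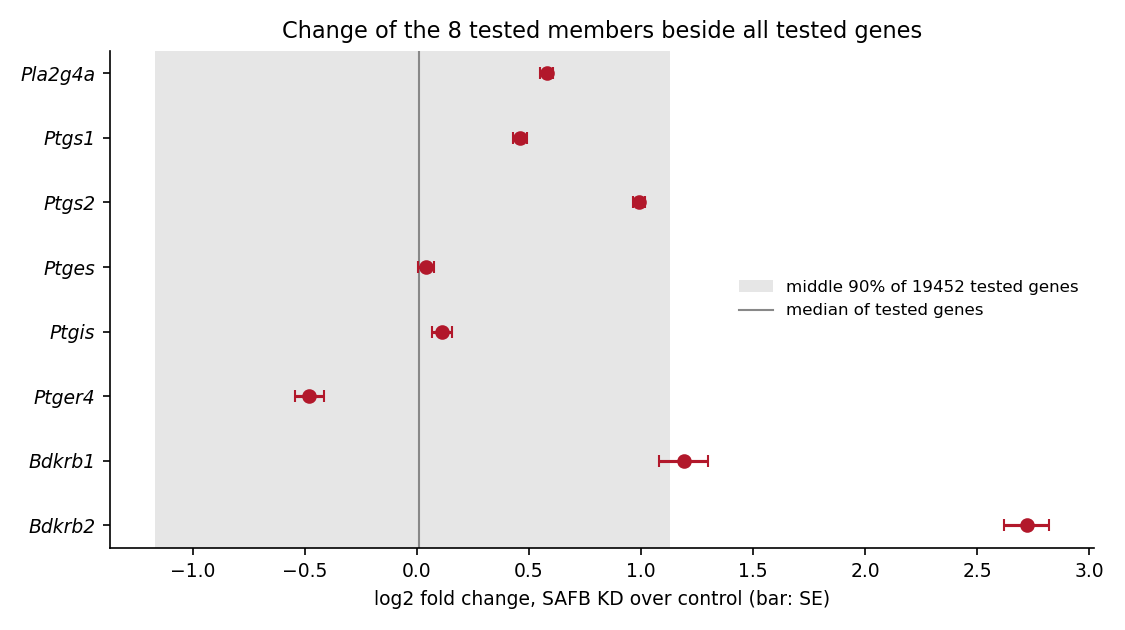
Log2 fold change of the 8 tested genes, SAFB KD over control, with SE bars, from the head of the pathway at the top to the bradykinin receptors at the bottom. The grey band holds the middle 90% of all tested genes (-1.17 to 1.13) and the line their median (0.01). Bdkrb2 at 2.72 lies far outside the band, Bdkrb1 at 1.19 just outside, and the others within it.

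The terminal synthases stayed near the control level. Ptges (ENSMUSG00000050737, chromosome 2, 30889471 to 30929863, minus strand), the inducible prostaglandin E synthase that often works with Ptgs2, was at 103, 97.8 and 98.9 CPM in SAFB KD and 95.8, 100 and 94.6 CPM in control. The groups overlapped, and the log2 fold change of 0.04 (SE 0.034) stayed between 0.01 and 0.06 under every alternative run. Ptgis (ENSMUSG00000017969, chromosome 2, 167191805 to 167240604, minus strand), which makes prostacyclin, was at 52.4, 57.6 and 56.7 CPM in SAFB KD and 54.6, 53.0 and 47.2 CPM in control. Its libraries overlapped as well, with a log2 fold change of 0.11 (SE 0.045) that was not called, and 0.04 without control 3, the lowest library.

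Of the synthases outside the 10 genes, 6 were tested, with 3 higher, 0 lower and 3 not called (median 0.27). The share called was 50.0%, against 41.8% of all tested genes. Akr1c18, an aldo-keto reductase that acts on prostaglandins and progesterone, was higher at 19.7 ± 0.556 CPM in SAFB KD and 9.98 ± 1.09 CPM in control (0.98, edgeR adjusted p = 3.06e-18). Ptges2 was higher by 0.37 (adjusted p = 1.22e-07) and the cytosolic Ptges3, which is also a chaperone, by 0.18 on the log2 scale (adjusted p = 6.23e-07). Akr1b3, a prostaglandin F synthase, was at 129 ± 6.66 CPM in SAFB KD and 121 ± 9.41 CPM in control and was not called (0.09, adjusted p = 0.148), but was called higher without SAFB KD 2 (0.13, adjusted p = 0.0257) or without control 1 (0.14, adjusted p = 0.00131). The thromboxane synthase Tbxas1 was near 0 and not called (0.288 ± 0.0743 CPM in SAFB KD, 0.117 ± 0.0251 CPM in control, adjusted p = 0.0732).

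Hpgd (ENSMUSG00000031613, chromosome 8, 56294585 to 56321043, plus strand), the dehydrogenase that inactivates prostaglandins, had 2 reads in SAFB KD 1 and none in the other 5 libraries. It was not tested, and a count of 0 allows up to 3 reads, or 0.0572 to 0.0893 CPM per library, by counting error alone. The other genes of transport and inactivation were detected throughout. Of the 8, 6 were higher, 1 lower and 1 not called (87.5% called, 41.8% over all tested genes, median 0.32). Slco2a1, which takes prostaglandins back into the cell, was at 74.5 ± 2.61 CPM in SAFB KD and 53.8 ± 3.53 CPM in control (0.47, edgeR adjusted p = 8.19e-15). Abcc4, an exporter of prostaglandins and cyclic nucleotides, was at 20.0 ± 0.325 CPM in SAFB KD and 15.1 ± 1.69 CPM in control (0.40, adjusted p = 1.16e-06). The reductases Cbr3 and Ptgr1 were higher by 0.38 and 0.29 on the log2 scale (adjusted p = 5.63e-08 and 2.17e-10). Uptake and export were therefore each represented by a gene that rose.

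**Figure D3:**
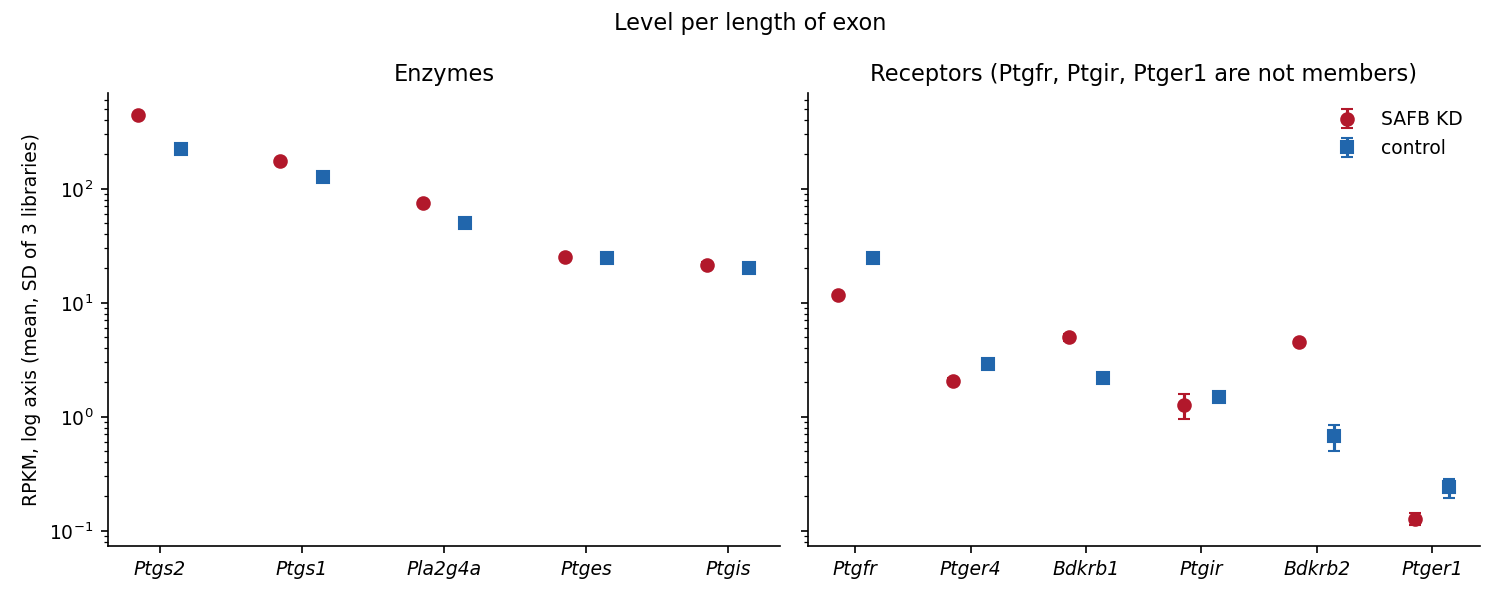
Level per length of exon (RPKM, log axis) of the detected enzymes on the left and of the detected prostanoid and bradykinin receptors on the right, with SAFB KD as red circles to the left of control as blue squares (mean and SD of 3 libraries). Enzymes lie between 20.1 and 444 RPKM. Among the receptors Ptgfr leads in both groups, at 11.7 RPKM in SAFB KD and 24.5 RPKM in control.

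In control cells the 8 tested genes were ordered, per length, as Ptgs2 (224 RPKM), Ptgs1 (126), Pla2g4a (50.0), Ptges (24.6), Ptgis (20.1), Ptger4 (2.90), Bdkrb1 (2.20) and Bdkrb2 (0.675). No neighbours in this order overlapped between control libraries, the closest being Ptges, at 24.1 to 25.5 RPKM, and Ptgis, at 18.4 to 21.3 RPKM. Among these 8, the enzymes were thus far above the receptors. The most abundant receptor of the 8, Ptger4, was above 54.2% of tested genes and the least abundant enzyme, Ptgis, above 87.3%. In SAFB KD the receptors among them changed places, with Bdkrb1 at 5.0, Bdkrb2 at 4.54 and Ptger4 at 2.08 RPKM. The enzyme Hpgd and the receptor Ptger2 were not tested and stand outside this order. Outside the 10 genes, the receptor Ptgfr was at 24.5 RPKM in control, above Ptgis and close to Ptges.

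Ptger4 (ENSMUSG00000039942, chromosome 15, 5206661 to 5244187, minus strand) encodes EP4, a prostaglandin E2 receptor that raises cAMP, and was the member that fell. It was at 13.2, 14.6 and 13.7 CPM in SAFB KD and 19.8, 19.2 and 18.8 CPM in control. The highest SAFB KD library lay below the lowest control library. The means were 13.8 ± 0.690 CPM in SAFB KD and 19.3 ± 0.521 CPM in control (log2 fold change -0.48, SE 0.066).

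Ptger4 shares its locus with genes on the other strand. Ttc33 (chromosome 15, 5185525 to 5218336, plus strand), whose exons share 82 bases with those of Ptger4, was lower by the same amount, at 22.5, 22.3 and 21.1 CPM in SAFB KD and 29.9, 30.1 and 31.7 CPM in control (-0.48, SE 0.055, edgeR adjusted p = 4.28e-11). The processed pseudogene Gm15937 (5208913 to 5210147, plus strand) lies within the spans of both genes and shares 1015 of its bases with Ptger4 exons. It went the opposite way at a very low level, 0.455, 0.534 and 0.496 CPM in SAFB KD and 0, 0.0985 and 0.0298 CPM in control (3.45, SE 0.63, adjusted p = 4.60e-06, 2.83 without control 1 and 4.95 without control 2). Nearest to Ptger4 without overlap, Prkaa1 was not called at 124 CPM in SAFB KD and 127 CPM in control (-0.04, adjusted p = 0.415), and neither was the rare Gm2157. The libraries were strand-specific, and reads shared by genes of opposite strands were kept apart as far as that chemistry allows.

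Ptger2 (ENSMUSG00000037759, chromosome 14, 44988195 to 45003820, plus strand) encodes EP2, the other prostaglandin E2 receptor that raises cAMP. It had 1 read in SAFB KD 2 and none elsewhere, so that it was not detectable at this depth. Its antisense gene Gm17173 (44972268 to 45006900, minus strand), which spans all of Ptger2 and shares 246 exon bases with it, rose in SAFB KD. It stood at 16.3, 17.2 and 16.2 CPM in SAFB KD and at 1.52, 1.18 and 1.46 CPM in control. The groups were more than 10 CPM apart, with little spread in either (16.6 ± 0.594 CPM in SAFB KD, 1.39 ± 0.181 CPM in control), and the log2 fold change was 3.58 (SE 0.11, edgeR adjusted p = 3.24e-36). At the locus of a receptor without detectable mRNA, polyadenylated RNA of the opposite strand was thus plain in SAFB KD cells.

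Among the prostanoid receptors outside the 10 genes, 4 of 8 were tested. Of these, 1 was higher, 2 lower and 1 not called (75.0% called, 41.8% over all tested genes, median -0.56). Ptgfr (chromosome 3, 151796502 to 151837630, minus strand), the prostaglandin F2α receptor, was by level the main prostanoid receptor of these cells and the one that fell most. It was at 76.7, 80.0 and 80.4 CPM in SAFB KD and 159, 165 and 175 CPM in control, with no overlap. Its log2 fold change was -1.07 (SE 0.035, edgeR adjusted p = 1.76e-35), and it was not called beyond 2-fold. Ptger1, encoding EP1, was low and fell, at 0.699 ± 0.0864 CPM in SAFB KD and 1.31 ± 0.242 CPM in control (-0.93, adjusted p = 0.00212). The prostacyclin receptor Ptgir, at 4.23 ± 1.04 CPM in SAFB KD and 4.94 ± 0.376 CPM in control, was not called (-0.19, adjusted p = 0.247). Ptgfrn, a membrane protein that binds the Ptgfr product and is not itself a prostanoid receptor, was higher by 0.17 (adjusted p = 1.43e-05). The prostanoid receptors detected in these cells were thus lower or not called, whereas the cyclooxygenases were higher.

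**Figure D4:**
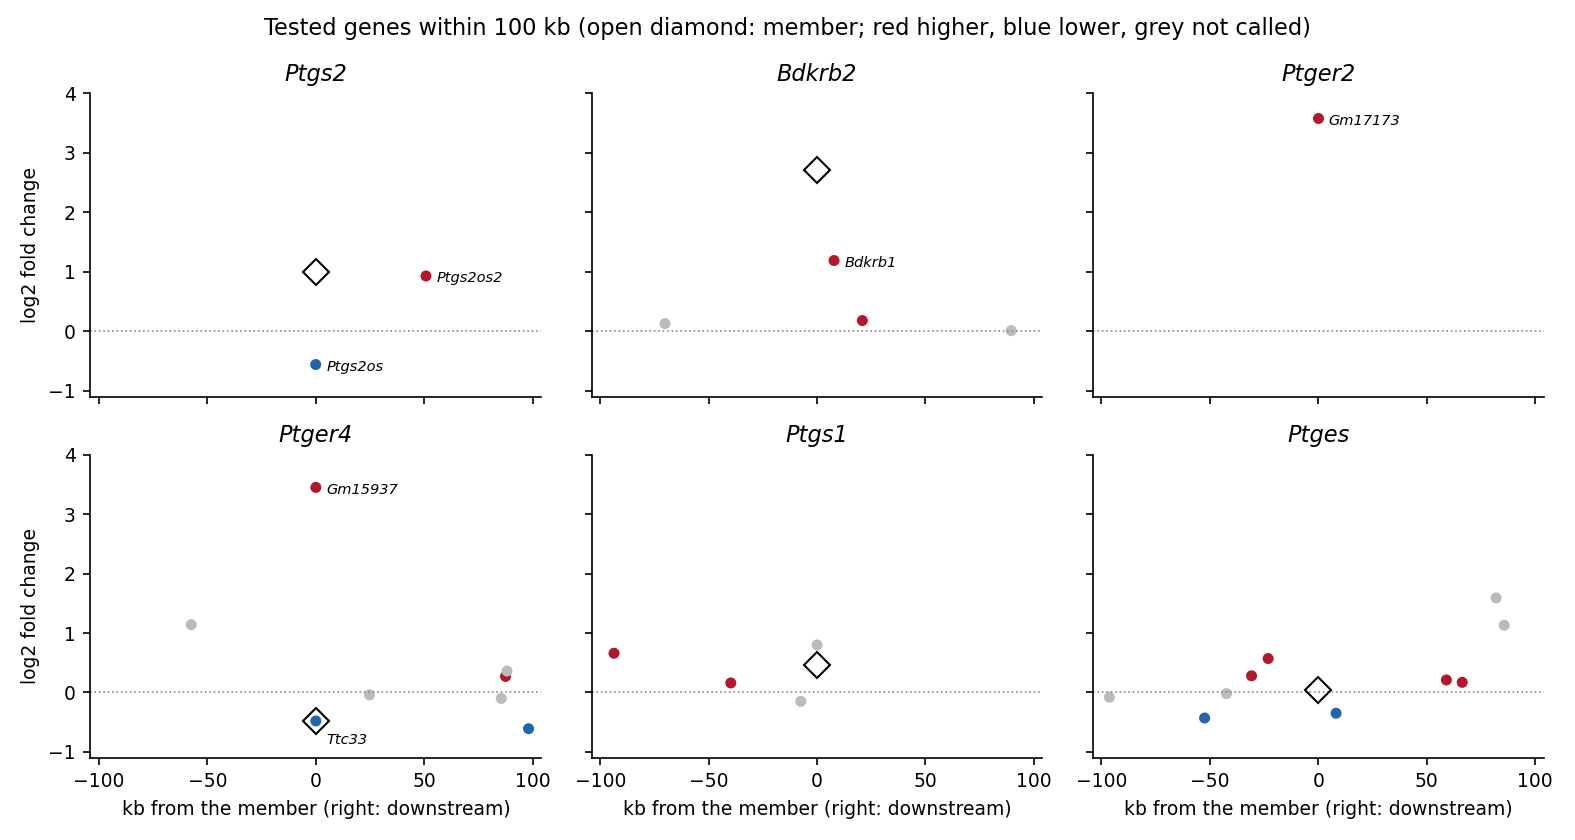
Log2 fold change, SAFB KD over control, of every tested gene within 100 kb of 6 of the genes, against its distance in kb along the strand of that gene (overlapping genes at 0). The open diamond is the gene itself, red points were called higher, blue lower and grey not called. Gm17173 at 3.58 stands over the untested Ptger2, Gm15937 at 3.45 over Ptger4, and Bdkrb1 at 1.19 next to Bdkrb2 at 2.72.

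Signal transduction downstream of EP2 and EP4 was mostly lower or not called. Of the 15 tested, 1 was higher, 7 lower and 7 not called (53.3% called, 41.8% over all tested genes, median -0.11). Akap12 and Akap13, which anchor protein kinase A, were lower by 0.91 and 0.38 on the log2 scale (edgeR adjusted p = 2.01e-16 and 2.09e-13). Akap12 was at 12.4 ± 1.29 CPM in SAFB KD and 23.0 ± 2.07 CPM in control. The regulatory subunit Prkar2b was lower by 0.15 and the adenylyl cyclase Adcy6 by 0.13 on the log2 scale (adjusted p = 1.68e-04 and 0.00223). Adcy7 was the higher one at 3.46 ± 0.551 CPM in SAFB KD and 2.38 ± 0.273 CPM in control (0.54, adjusted p = 0.00245, and 0.0574 without SAFB KD 2). Gnas, which encodes the stimulatory G protein α subunit, and the abundant Prkar1a were not called (-0.03 and 0.00, adjusted p = 0.478 and 0.980). Without control 3, Gnas was called lower (-0.07, adjusted p = 0.0408).

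Of genes that cAMP induces, 17 were tested, of which 11 were higher, 4 lower and 2 not called (median 0.16). The share called was 88.2%, against 41.8% of all tested genes. The nuclear receptors Nr4a3, Nr4a2 and Nr4a1 were higher by 0.82, 0.44 and 0.16 on the log2 scale (edgeR adjusted p = 9.32e-09, 1.54e-10 and 3.23e-05). Dusp1, a phosphatase of MAP kinases, was higher by 0.58, the neurotrophin Bdnf by 0.44 and Rgs2, which dampens Gq signals, by 0.13 (adjusted p = 8.81e-14, 1.18e-17 and 0.00232). Fos, induced by cAMP as by serum, was lower at 13.7 ± 0.814 CPM in SAFB KD and 19.9 ± 0.595 CPM in control (-0.54, adjusted p = 2.81e-10). These genes answer to many signals besides cAMP, and no cAMP was measured.

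Both bradykinin receptors were higher in SAFB KD, Bdkrb2 more than any other of the 10 genes. Bdkrb2 (ENSMUSG00000021070, chromosome 12, 105563226 to 105595237, plus strand) was at 18.2, 16.8 and 16.7 CPM in SAFB KD and 3.32, 2.34 and 2.02 CPM in control. These values rest on 639, 724 and 877 reads in SAFB KD and on 144, 95 and 68 reads in control. All SAFB KD libraries were several-fold above all control libraries, and the relative spread was 4.70% in SAFB KD and wider in control at 26.4%, where control 1 was highest. The means were 17.2 ± 0.810 CPM in SAFB KD and 2.56 ± 0.675 CPM in control, a 6.60-fold rise (log2 fold change 2.72, SE 0.10, and 2.58 to 2.96 with any library left out), which ranked 148 from the top of all tested genes.

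Bdkrb1 (ENSMUSG00000041347, chromosome 12, 105603085 to 105605428, plus strand) follows Bdkrb2 on the same strand after 7847 bases. It was at 7.56, 6.57 and 7.42 CPM in SAFB KD and at 3.20, 3.15 and 3.10 CPM in control. The control libraries were nearly equal and the SAFB KD libraries more than 3 CPM above them (7.18 ± 0.537 CPM in SAFB KD, 3.15 ± 0.0537 CPM in control, SD, n = 3 each). The log2 fold change of 1.19 (SE 0.11, 2.27-fold) was called higher but not beyond 2-fold.

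The receptors did not rise in step. The log2 ratio of Bdkrb2 to Bdkrb1 reads within a library was 1.26, 1.36 and 1.17 in SAFB KD and 0.05, -0.43 and -0.61 in control, a difference of 1.59 (1.45 to 1.79 with any library left out). Of the other tested genes within 100 kb, Atg2b, an autophagy gene 10707 bases beyond Bdkrb1, was higher by 0.18 (91.3 CPM in SAFB KD, 80.4 CPM in control, edgeR adjusted p = 2.44e-05), and the rare D430019H16Rik on the other side was not called (0.13, adjusted p = 0.853). Atg2b thus moved far less than either receptor, and D430019H16Rik was too rare to show whether it changed (SE 0.44).

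Of the genes of kinin formation and receptor coupling, 10 were tested, of which 4 were higher, 2 lower and 4 not called (median 0.15). The called genes made up a larger share of those tested than the 41.8% called over all tested genes. Kng2, a kininogen gene (chromosome 16, 22985854 to 23029482, minus strand), was higher at 0.909, 1.25 and 0.782 CPM in SAFB KD and 0.161, 0.0985 and 0.0893 CPM in control (log2 fold change 3.01, SE 0.41, edgeR adjusted p = 5.43e-09), and was called beyond 2-fold. It stayed rare, with 32, 54 and 41 reads in SAFB KD and 7, 4 and 3 reads in control. Gnaq, the G protein through which both receptors signal, was lower at 69.2 ± 1.81 CPM in SAFB KD and 99.4 ± 3.24 CPM in control (-0.52, adjusted p = 1.51e-19), and its close relative Gna11 was not called (-0.08, adjusted p = 0.0503) but was called lower without control 3 (-0.12, adjusted p = 0.0105). Of the genes that end receptor signalling, Grk2 was higher by 0.33 and Arrb2 by 0.18, and Arrb1 was lower by 0.41 on the log2 scale (adjusted p = 2.16e-12, 0.0127 and 7.18e-08). Arrb2 was no longer called without control 2 (adjusted p = 0.126).

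Kinin-degrading peptidases were more often higher than lower. Of the 17 tested, 8 were higher, 2 lower and 7 not called (58.8% called, 41.8% over all tested genes, median 0.16). Cpd, a carboxypeptidase that takes off C-terminal arginine, was at 264 ± 6.75 CPM in SAFB KD and 168 ± 4.39 CPM in control (0.65, edgeR adjusted p = 3.05e-27), and Cpe, which has the same specificity, was higher by 0.14 (adjusted p = 5.85e-05). Xpnpep1, which cuts the N-terminal end of bradykinin, was at 174 ± 5.04 CPM in SAFB KD and 125 ± 4.61 CPM in control (0.48, adjusted p = 8.85e-20). The oligopeptidases Thop1 and Nln were higher by 0.48 and 0.31 and the leucine aminopeptidase Lap3 by 0.21 on the log2 scale (adjusted p = 3.56e-13, 1.87e-09 and 7.18e-08). Ece1, which cleaves bradykinin in endosomes, was lower at 14 ± 0.132 CPM in SAFB KD and 20.8 ± 1.54 CPM in control (-0.57, adjusted p = 4.04e-11).

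Lipoxygenase and leukotriene genes, which use the same arachidonate, were mostly not called. Of 8 tested, 1 was higher, 0 were lower and 7 were not called (12.5% called, 41.8% over all tested genes, median 0.04). Ephx2, a soluble epoxide hydrolase listed with them, was the higher one, at 3.01 ± 0.169 CPM in SAFB KD and 2.09 ± 0.216 CPM in control (0.53, edgeR adjusted p = 0.00367). Lta4h and Alox5ap, the most abundant per length, were not called (each 0.04, adjusted p = 0.384 and 0.830). Neither were Alox8, Alox12 and Ltb4r1, each below 0.2 CPM and too rare to show whether they changed (0.87, -2.09 and 0.96, SE 0.8, 1.3 and 0.71). Alox5 and Ltc4s had no read in any library, where a count of 0 allows the same limit as for Hpgd.

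**Figure D5:**
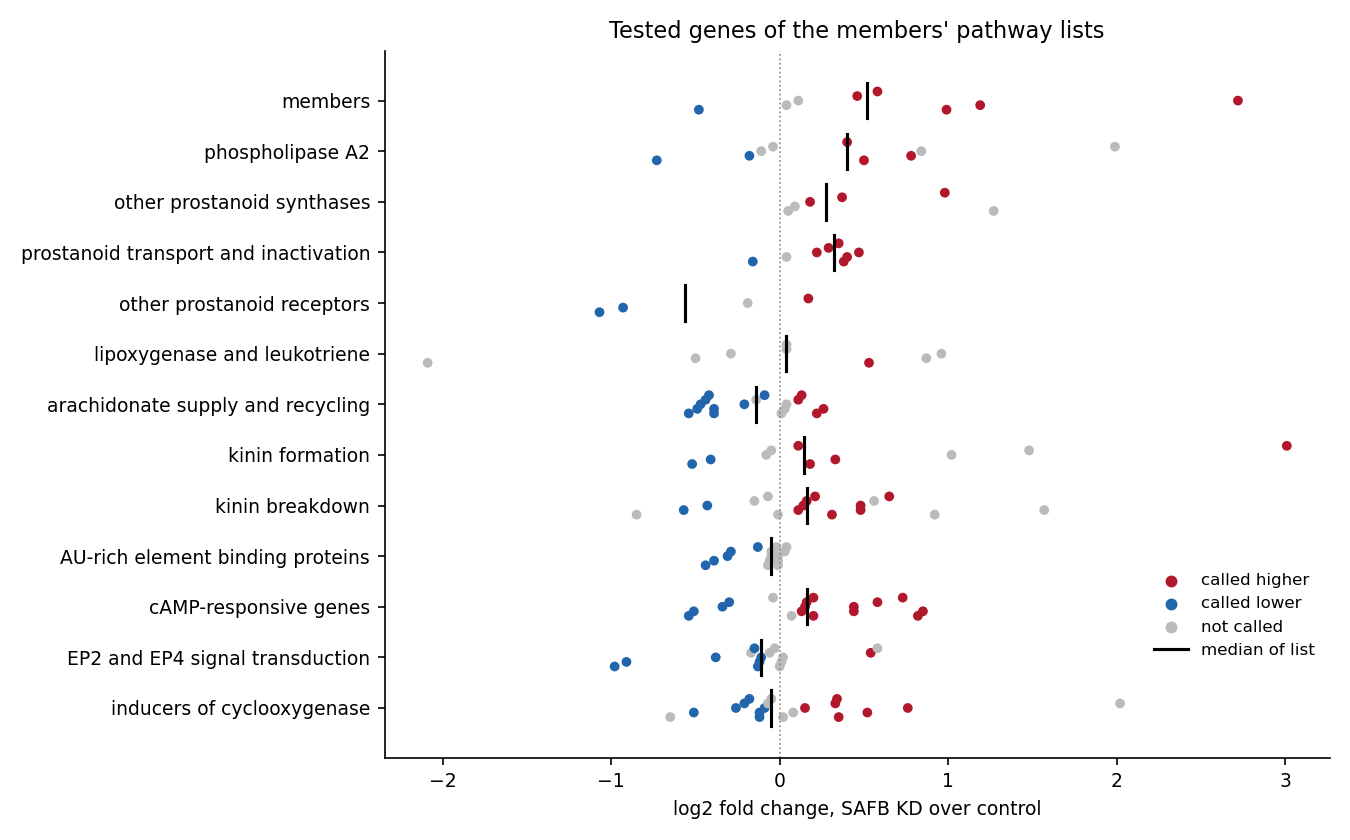
Log2 fold change, SAFB KD over control, of each tested gene of the 10 described here (members) and of the 12 other pathway lists, 1 row per list, with called higher in red, called lower in blue, not called in grey and the list's median as a bar. The members' median is 0.52 and the lists' medians run from -0.56 (other prostanoid receptors) to 0.40 (phospholipase A2).

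Over the 12 lists together, 145 genes outside the 10 were tested, of which 48 were higher, 41 lower and 56 not called. These are 61.4% called, against 41.8% of all tested genes, with a median log2 fold change of 0.02. The lists were chosen with earlier results known, and this share was not tested. Of the 12 lists, 9 held genes called higher and genes called lower, and no difference between lists was tested.

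Around the remaining genes, the nearest tested neighbours moved without a common direction. Next to Ptges, Prrx2 was lower by 0.35 on the log2 scale and Tor1b was higher by 0.57 (edgeR adjusted p = 8.11e-05 and 1.05e-20). Next to Ptgis, B4galt5 was not called (0.06, adjusted p = 0.208). At Ptgs1, neither the rare Gm43621 within the gene nor Gm13431 beside it was called (0.80 and -0.15, adjusted p = 0.275 and 0.729). Of all 4 tested genes within 100 kb of Ptgs1, 2 farther off were called higher and 0 lower. Hpgd had no tested gene within 100 kb.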

How the data were processed

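The deposited values were counts, whole numbers of reads per gene, 1 library per file. The authors trimmed the reads, aligned them to GRCm38 with STAR 2.7.9a and GENCODE gene models and, per their methods, counted reads on the reverse strand by gene. That the deposited column holds these was inferred. Such counting keeps uniquely aligned reads that overlap 1 gene on the right strand, so reads of near-identical copies are left out. Identifiers were matched without version to GENCODE (54495 of 54532), which gave symbols, coordinates and exon lengths.

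Groups and replicate numbers came from the sample titles. A gene was tested if its reads summed to at least 10 over all libraries. Counts were TMM-normalized and compared in edgeR 4.0.16 (R 4.3.3) by its robust quasi-likelihood test, 2-sided, with no covariate and Benjamini-Hochberg adjustment over all 19452 genes tested. An adjusted p under 0.05 was called, and changes beyond 2-fold were called with glmTreat. The SE of a log2 fold change was derived from that test. CPM use TMM-scaled library sizes, RPKM divide them by merged exon length, and errors on levels are SD (n = 3). Fits were tested on simulated data. Alternatives were RLE size factors, DESeq2 1.42.0, voom of limma 3.58.1, no filter, filterByExpr, a replicate block, each library left out and, chosen after seeing the data, a fit without robust estimation.

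The members and all lists were chosen with earlier results of these data known. Outside the members, named genes were the knockdown targets, up to 5 tested genes of each list with the smallest adjusted p and the 2 highest per kb, tested genes that overlap a member and the nearest tested gene on each side within 100 kb. Some genes that this rule takes are not reported here. Members of the marker lists were named only where called or at 0, the called ones after their values were seen. GAAGAA over introns was not analysed here, and mature transcripts were used instead. Promoters are RefSeq's. No replicate pair held identical values. The series text calls the replicates biological, without saying what set them apart, so p values measure the spread between these libraries. Figures were drawn with matplotlib 3.10.9.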

Additional observations from a re-analysis of the deposited data

How the results depend on the processing

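The direction of all 8 tested members held under every alternative, and 5 or 6 were called higher, 1 lower and 1 higher beyond 2-fold throughout. Ptgis was the member whose call depended on the setting: it was not called in the edgeR test, and was called higher with the replicate block, without filter, without SAFB KD 1 and without control 1, with log2 fold changes of 0.04 to 0.14 with a library left out. Over all genes, calls beyond 2-fold fell to 76 higher and 55 lower with DESeq2 and to 79 higher and 58 lower with limma-voom, against 140 higher and 105 lower. The cause was not tested. With a library left out these counts were 110 to 123 higher and 83 to 97 lower, and 5 to 8 AU-rich element binding proteins were called.

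Same-numbered libraries did not deviate together (correlations -0.00514, -0.00907 and -0.0166), so the replicate number pairs nothing. With the replicate block, 4192 genes were higher and 3926 lower, 6 members were higher, and among named genes the calls of Ptgis and Akr1b3 (adjusted p = 0.0142) changed. Without filter they changed too (Akr1b3 at 0.0245), and Pla2g6 was no longer called (0.0506). Gna11 was called with RLE size factors, DESeq2 and filterByExpr (each -0.09) and without control 3 (-0.12).

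Genes that were not called and lie near 0 changed sign: Prkar1a was at -0.01 with RLE size factors, DESeq2, filterByExpr and when SAFB KD 3 or any control library was left out, Alox5ap at 0.00 without control 2, D430019H16Rik at -0.14 without SAFB KD 2 or control 3, and Gm13431 at 0.08 without SAFB KD 2. With each library left out in turn they ranged from -0.01 to 0.01, from 0.00 to 0.05, from -0.14 to 0.62 and from -0.37 to 0.08, in that order. Among members, the fold changes of Bdkrb1 (SE 0.11) and Bdkrb2 (SE 0.10) are the least precise, and Hpgd and Ptger2 are below what this depth can compare.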
